A study of Mus musculus with 27 samples.

Results

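The genes described here are the 10 that encode the enzymes of fatty acid synthesis, elongation and desaturation Fasn, Acaca, Acly, Scd1, Scd2, Elovl1, Elovl5, Elovl6, Fads1 and Fads2. They were chosen by symbol as a pathway, with earlier results of these data known. In all, 28 probe sets carried 1 of these symbols alone. Each gene was read from the probe set with the highest mean, out of 18193 genes measured in the same way. RNA of mouse embryonic fibroblasts was measured on 27 Affymetrix arrays. The groups were the line labelled R (a PKBalpha knockout with PKBalpha reconstituted, per the labels), the knockout line itself and the wild-type line, each without treatment and 4 h and 24 h after gamma-irradiation with 10 Gy, with 3 arrays in each of the 9 groups. PKBalpha is the protein kinase encoded by Akt1. All cells were female and at passage 45, per the labels. Each genotype is 1 line, and the study calls the arrays of a group biological replicates. The p values therefore measure the spread among samples of a single line. The labels do not say how long untreated cells were kept, so irradiation and time in culture cannot be told apart.

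Fatty acid synthesis starts in the cytosol, where citrate is split to acetyl-CoA, acetyl-CoA is carboxylated to malonyl-CoA, and both are joined into palmitate. Elongases in the endoplasmic reticulum then lengthen the chain, and desaturases put double bonds into it. In many mammalian cells the genes of these enzymes are transcribed under the control of the sterol regulatory element binding proteins (SREBPs), which Srebf1 and Srebf2 encode. Protein kinase B is known as an activator of this pathway in insulin-responsive cells.

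Promoter windows from RefSeq (GRCm38.p6, 250 bases before to 50 after the start site) were listed for 7 of the 10 genes, in 8 windows. The windows of 3 genes are printed because they stand for the 3 kinds of result below. Fads2 differed most between the lines (chr19:10101454-10101753, minus strand), Elovl6 was lower at both times after irradiation in the wild-type line (chr3:129532136-129532435, plus strand), and Fasn passed the test in no comparison of all 27 arrays (chr11:120824498-120824797, minus strand). They are written 5' to 3' on the strand of the gene, and capitals mark matches to the motifs searched.
Fads2: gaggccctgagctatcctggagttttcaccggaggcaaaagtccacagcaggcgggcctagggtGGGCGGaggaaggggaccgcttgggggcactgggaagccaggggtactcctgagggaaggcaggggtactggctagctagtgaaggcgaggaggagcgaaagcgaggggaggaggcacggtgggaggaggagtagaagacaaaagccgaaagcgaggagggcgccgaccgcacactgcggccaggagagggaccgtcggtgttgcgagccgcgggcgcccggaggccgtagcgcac
Elovl6: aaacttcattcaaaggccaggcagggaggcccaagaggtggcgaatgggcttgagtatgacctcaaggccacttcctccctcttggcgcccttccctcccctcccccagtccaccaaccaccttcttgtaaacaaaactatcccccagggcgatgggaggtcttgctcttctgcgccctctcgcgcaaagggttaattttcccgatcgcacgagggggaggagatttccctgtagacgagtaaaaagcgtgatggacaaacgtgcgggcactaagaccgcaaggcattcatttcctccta
Fasn: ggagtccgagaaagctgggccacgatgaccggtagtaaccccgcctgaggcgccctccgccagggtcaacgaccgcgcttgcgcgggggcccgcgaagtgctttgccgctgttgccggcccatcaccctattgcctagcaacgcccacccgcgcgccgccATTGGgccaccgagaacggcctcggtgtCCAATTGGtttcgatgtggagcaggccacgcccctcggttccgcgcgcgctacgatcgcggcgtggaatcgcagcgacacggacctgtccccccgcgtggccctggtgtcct
Both strands were searched for 4 motifs, a sterol regulatory element (TCACNCCAC), the CCAAT box (CCAAT), the GC box (GGGCGG) and the E-box (CACGTG), and in these windows the only matches that overlap are a pair of CCAAT boxes of Fasn on opposite strands and a GC box with a CCAAT box of Elovl1. The sterol regulatory element, as spelled here, matched in 0 of the 8 windows and in 1.24% of 32851 RefSeq windows. The CCAAT box matched 3 times in Fasn (starting at -90, -62 and -59 from the start site), 2 times in Elovl5, and 1 time each in Acly and Elovl1, and was present in 37.4% of all windows. The GC box was present in 35.7% of all windows, and among these genes in Fads2 (at -186), Acly and both windows of Elovl1. Elovl5 held 1 E-box, which 7.15% of all windows hold. Acaca and Elovl6 matched none of the 4. These matches describe letters and were not tested for binding.

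Arrays had median intensities of 54.43 to 80, and 9913 to 10726 genes per array lay above a background level of 74.5, set from probe sets of Y-linked genes, which female cells lack. The probe sets used for the 10 genes lay above it on all 27 arrays. Akt1 had a geometric mean intensity of 21 in the line labelled R (6.25 to 41.9 over 9 arrays), 21.5 in the knockout line (2.35 to 65.5) and 3550 in the wild-type line (2980 to 4550). Thus the line labelled R showed no Akt1 signal above background, and whether the probe set can read the reconstituted gene was not tested. All 12 fibroblast markers examined lay above background in every group, with summed intensities of 137000 to 220000. Of 8 adipocyte markers measured, Fabp4 and Cebpa lay above background in their group means, while Adipoq, Cidec, Lep, Retn, Pparg and Pck1 reached it on 0 arrays.

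Signal at the 3' end of Gapdh over signal at its 5' end, as a log2 ratio of the array's control probe sets, set 5 arrays apart, with values of -0.187 to 0.16 against -0.466 to -0.298 on the other 22. The cut between them, at -0.25, was set with earlier results of these data known. The 5 arrays were 1 each of untreated cells of the line labelled R, the knockout line and the wild-type line, 1 at 24 h of the line labelled R and 1 at 4 h of the wild-type line. Of the 21 probe sets of the 10 genes that lay above background everywhere, 8 were higher on each of the 5 arrays than the mean of the other arrays of its group, and 7 were lower on each. The higher ones include those used for Fasn (by 0.03 to 1.19 on the log2 scale), Acaca (0.18 to 1.07), Elovl1 (0.04 to 0.59) and Fads1 (0.13 to 0.88). Scd1 is the only gene whose used probe set was lower on all 5 (-0.39 to -0.13). Other probe sets of the same genes went further down. Scd2 probe set 1415824_at, for example, was lower by -3.43 to -2.12, while the one used for Scd2 differed by -0.31 to 0.05. Many results of the 10 genes are given with and without these arrays. The part of RNA quality in the results was not tested further.

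**Figure D1:**
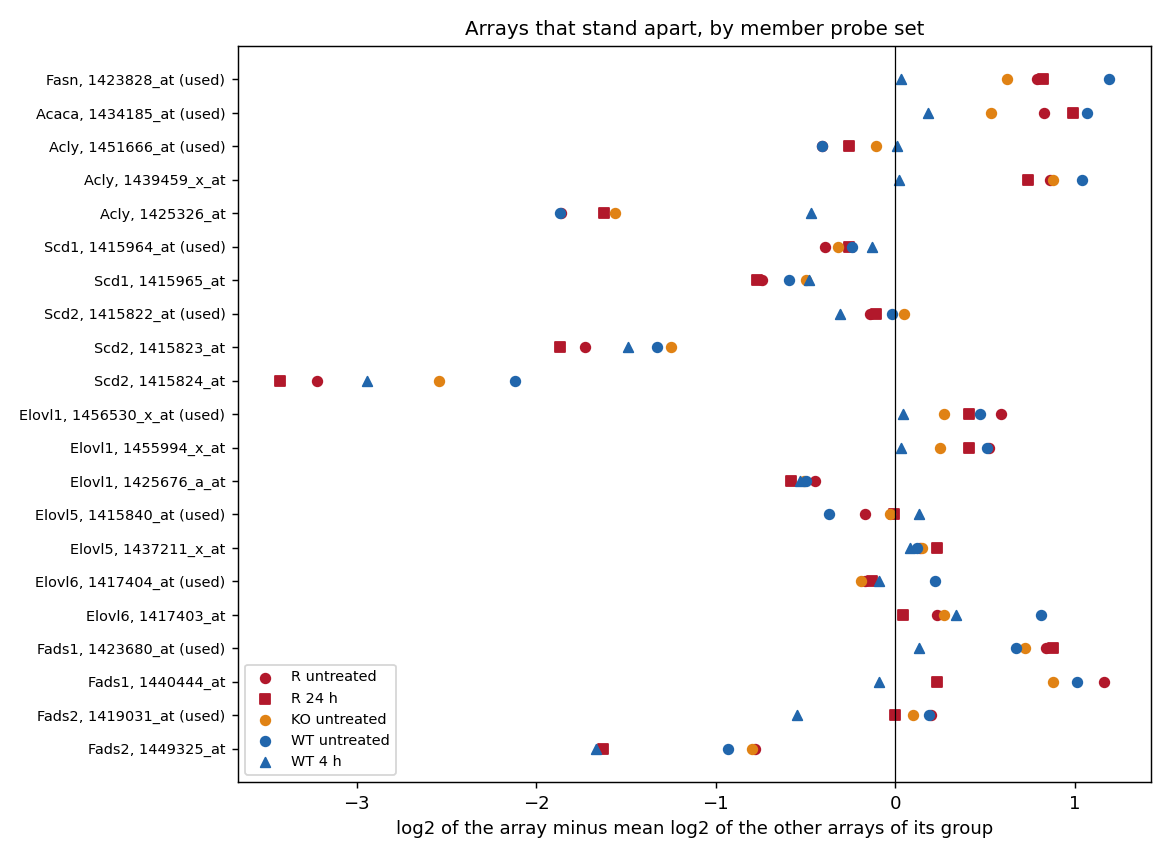
Each row is 1 of the 21 probe sets of the 10 genes that lay above background on all 27 arrays, and each symbol is 1 of the 5 arrays that stand apart by their Gapdh ratio, placed by its log2 intensity minus the mean log2 intensity of the other arrays of its group. Fasn, Acaca, Elovl1 and Fads1 (used probe sets) lie right of 0 on all 5 arrays, and probe set 1415824_at of Scd2 lies furthest left.

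In the wild-type line 4 h after irradiation, the stearoyl-CoA desaturases Scd1 and Scd2, the elongase Elovl6 and the desaturase Fads2 fell. They fell by 0.88, 0.58, 0.77 and 0.92 on the log2 scale, which is 1.84-fold, 1.49-fold, 1.7-fold and 1.89-fold. These are 4 of the 10 genes, where 1.74% of all 18193 genes were lower by the same test (limma, Benjamini-Hochberg adjusted p below 0.05). All 10 genes had a negative difference, as did 50.8% of all genes, with a median of -0.57 against -0.01 over all genes. In 6 of the 10, the 3 arrays at 4 h lay apart from the 3 untreated arrays, as in 21.2% of all genes. With equal array medians the adjusted p values were 0.078 for Scd1, 0.15 for Scd2, 0.089 for Elovl6 and 0.03 for Fads2, and with all probe sets of a gene averaged they were 0.032, 0.56, 0.13 and 0.015. In a fit on the compared arrays alone, all 4 calls ended (adjusted p = 0.33 to 0.36). At 24 h Elovl6 alone passed the test, lower by 0.86, in a comparison in which 0.0275% of all genes were called lower. Summed adipocyte markers were 731 to 919 at 4 h and 1040 to 2090 at 24 h, against 966 to 1390 in untreated cells of this line, and summed fibroblast markers were 137000 to 166000 and 159000 to 164000, against 174000 to 180000. At 4 h adipocyte sums were lower in the other lines too, at 343 to 446 in the line labelled R (709 to 807 untreated). In the knockout line they were 605 to 654 (800 to 977 untreated). The part of the markers in the result was not tested. In these bulk samples, fewer cells of a kind and less RNA per cell cannot be told apart.

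None of the 10 genes passed the threshold after irradiation in the other lines (limma). In the line labelled R, 0 passed at 4 h and 0 at 24 h, where 0.978% and 0% of all genes did in either direction, and 3 and 1 had an unadjusted p below 0.05, as 14.7% and 4.56% of all genes had. In the knockout line, 0 passed at 4 h and 0 at 24 h, against 0.368% and 0% of all genes, and 2 and 2 had an unadjusted p below 0.05, as 13% and 5.85% of all genes had. The median differences of the 10 genes were -0.22 at 4 h and -0.20 at 24 h in the line labelled R, and -0.22 and -0.16 in the knockout line. For all genes these medians were -0.03, 0.02, -0.03 and 0.02. Without the arrays that stand apart the medians of the 10 genes were -0.07 and -0.21 in the line labelled R and -0.19 and -0.07 in the knockout line. With all probe sets of a gene averaged, the medians at 4 h turned to 0.03 in the line labelled R and 0.02 in the knockout line. The plot of responses in each line shows the 3 lines side by side.

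**Figure D2:**
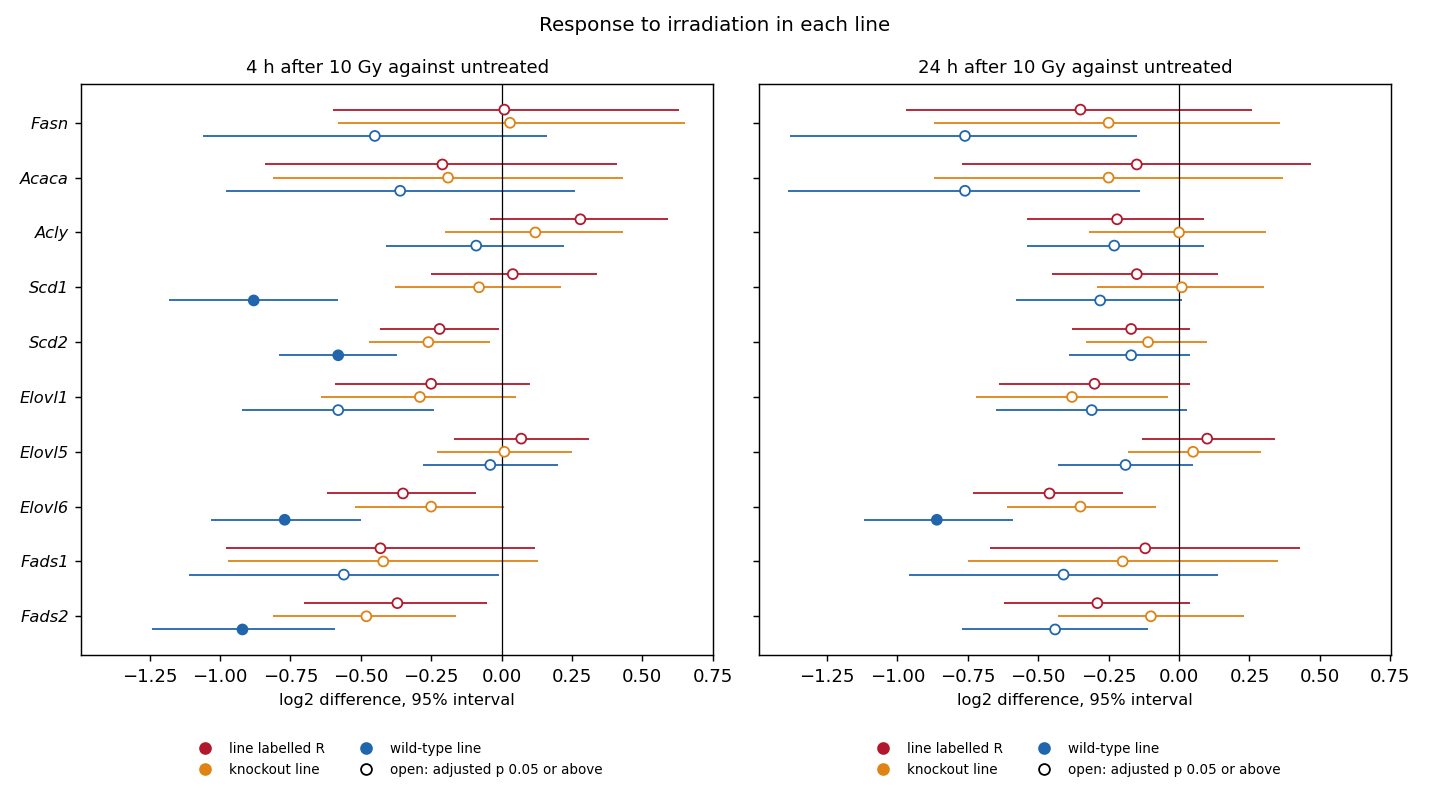
Log2 difference of irradiated against untreated cells for the 10 genes (rows) at 4 h and 24 h, with 95% intervals from limma, for the line labelled R, the knockout line and the wild-type line. Filled points passed an adjusted p of 0.05. The filled points are Scd1, Scd2, Elovl6 and Fads2 at 4 h and Elovl6 at 24 h, all of the wild-type line.

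Between untreated lines, Fads2 stood out in level. Its mean intensity was 1560 in the line labelled R, 3010 in the knockout line and 6060 in the wild-type line, and each pair of lines differed. Against the wild-type line, 5 of the 10 genes were lower in the line labelled R (Fads2, Fads1, Scd1, Scd2 and Elovl5) and 1 was lower in the knockout line (Fads2), where 9.39% and 9.83% of all genes were called lower. Compared with the knockout line, the line labelled R was lower in 3 of the 10 (Fads2, Scd1 and Scd2), against 1.62% of all genes. None of the 10 was higher by the test for the line labelled R against wild type, the knockout line against wild type or the line labelled R against the knockout line, where 9.39%, 7.77% and 2.18% of all genes were. The median difference of the 10 genes was -0.31 for the line labelled R relative to wild type (0.06 over all genes), -0.13 for the knockout line against the wild-type line (0 over all genes, and -0.04 for the 10 without the arrays that stand apart) and -0.19 for the line labelled R against the knockout line (0.05 over all genes). Marker sums moved with the lines too. The summed haematopoietic markers ran from 391 to 556 in untreated cells of the line labelled R, 567 to 717 in the knockout line and 1160 to 1780 in the wild-type line, with at most 3 of 8 markers above background. Epithelial markers summed to 286 to 350, 171 to 293 and 753 to 1380 in the same order of lines, and endothelial markers to 105 to 153, 64.9 to 111 and 270 to 455. Of 8 epithelial markers 2, 2 and 3 lay above background in these groups, and of 6 endothelial markers 0, 0 and 1 (Kdr). Csf1r, Cd14 and Epcam lay above background in the untreated means of all 3 lines. Krt19 did so in the line labelled R and the knockout line, and Lyz2 in the line labelled R. Cd68, Krt8 and Krt14 did so in the wild-type line alone, with Krt14 at up to 1060. Ptprc, Itgam, Tyrobp, Cdh1, Krt5, Cldn4, Pecam1, Cdh5, Tek, Tie1 and Emcn reached background on 0 arrays. With markers on both sides, the sums do not show whether such cells were present. The part of these markers in the differences was not tested.

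**Figure D3:**
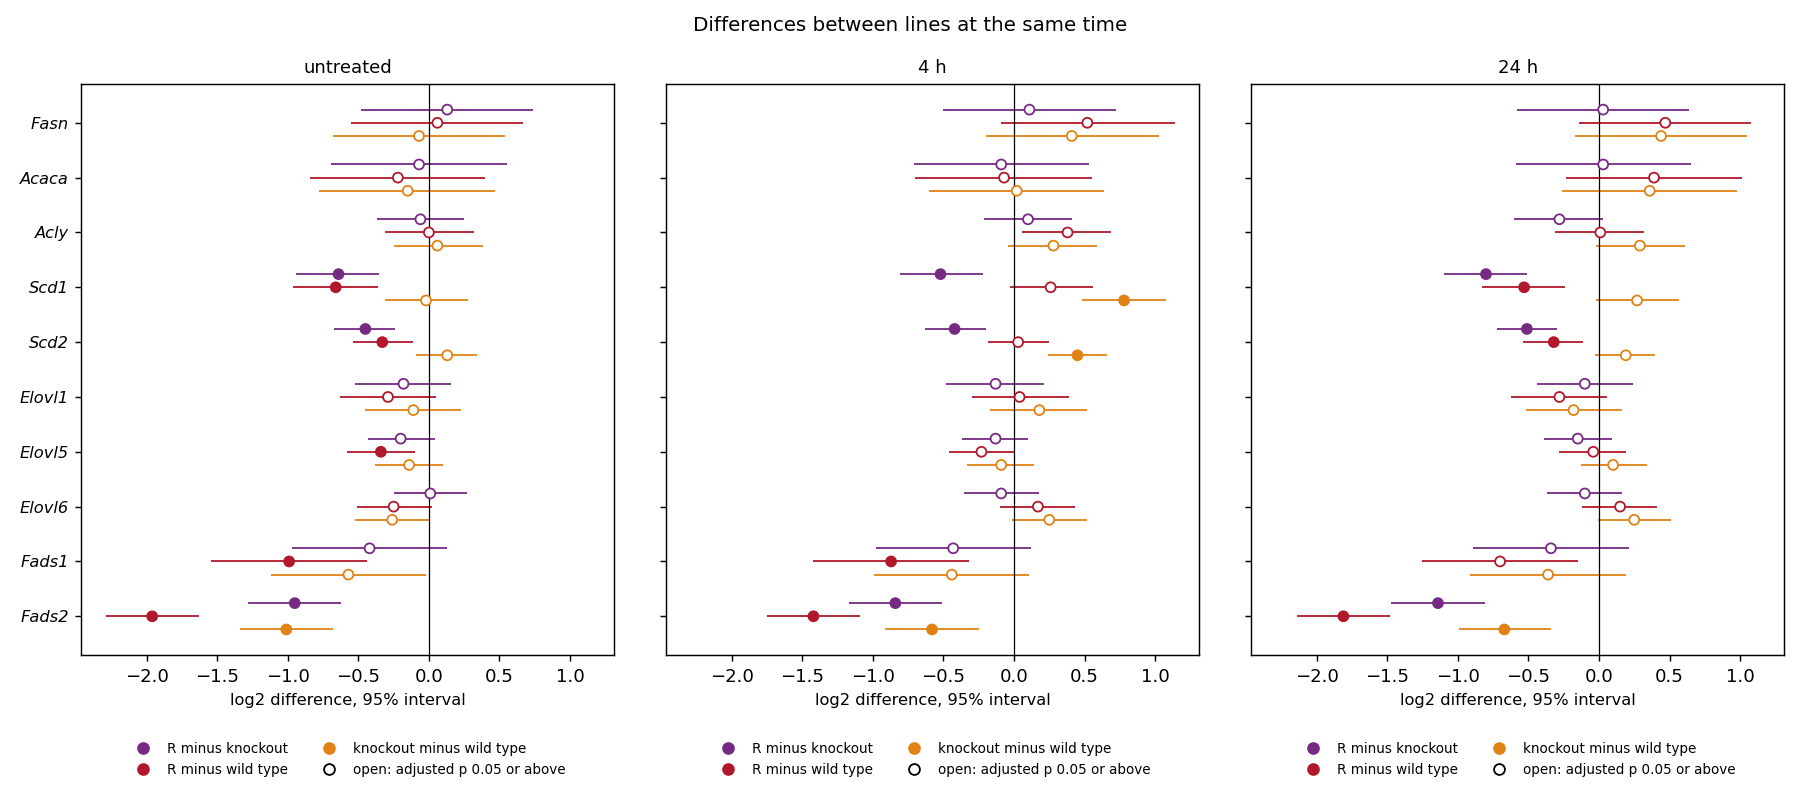
Log2 differences between lines for the 10 genes (rows) in untreated cells, at 4 h and at 24 h, with 95% intervals from limma. Filled points passed an adjusted p of 0.05. Fads2 is filled and left of 0 in all 9 comparisons, and Scd1 and Scd2 are right of 0 for the knockout line minus the wild-type line at 4 h.

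Fads2 and Fads1 are neighbours on chromosome 19 and encode front-end desaturases. Fads2 catalyses the first desaturation in the making of long polyunsaturated chains from linoleic and alpha-linolenic acid, and Fads1 a later one. Untreated cells gave Fads2 intensities of 1500, 1710 and 1480 in the line labelled R, 2770, 3130 and 3160 in the knockout line, and 6390, 5260 and 6630 in the wild-type line. The 3 lines did not overlap, in steps of nearly the same size on the log2 scale. Pairs of untreated lines did not overlap in 17.5% to 29.3% of all genes. Fads2 was lower in the line labelled R than in the wild-type line by 1.96 (SE 0.16, adjusted p = 1.8e-08, limma), and the knockout line was lower than the wild-type line by 1.01 (SE 0.16, adjusted p = 9e-05). Both calls held in all 19 alternatives. It was also lower in the line labelled R than in the knockout line, by 0.95 (SE 0.16, adjusted p = 0.0015), which was lost only in a fit on the compared arrays alone (adjusted p = 0.2).

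The order of the lines for Fads2 was the same after irradiation. At 4 h the intensities were 1160, 1230 and 1210 in the line labelled R, 2110, 2190 and 2160 in the knockout line, and 2490, 3410 and 3900 in the wild-type line. At 24 h they were 1320, 1230 and 1270 in the line labelled R, 2360, 2790 and 3390 in the knockout line, and 3780, 4950 and 4750 in the wild-type line. At both times every array of the line labelled R lay below every array of the knockout line, and every array of the knockout line below every array of the wild-type line. Pairs of lines did not overlap in 30.4% to 35.8% of all genes at 4 h and in 24.1% to 36.8% at 24 h. The differences of the line labelled R from the wild-type line were -1.42 at 4 h (adjusted p = 1.5e-06) and -1.81 at 24 h (adjusted p = 5.1e-08). Those of the knockout line from the wild-type line were -0.58 at 4 h (adjusted p = 0.015) and -0.67 at 24 h (adjusted p = 0.0043), and those of the line labelled R from the knockout line -0.84 (adjusted p = 0.0042) and -1.14 (adjusted p = 0.00023). The knockout value at 4 h was the weakest of the 6 and passed in 4 of 10 alternatives.

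All 3 probe sets of Fads2 ranked the untreated lines in that order by their means. Probe set 1449325_at had means of 1200 in the line labelled R, 2170 in the knockout line and 4170 in the wild-type line, and probe set 1443838_x_at had 162, 251 and 607. Each differed between the line labelled R and the wild-type line when probe sets were tested by themselves, by -1.80 (SE 0.45, adjusted p = 0.01) for 1449325_at and -1.91 (SE 0.29, adjusted p = 9.9e-05) for 1443838_x_at. On 1443838_x_at the untreated arrays of the line labelled R (133 to 228) overlapped those of the knockout line (174 to 363). On 1449325_at the untreated ranges were 836 to 1470 in the line labelled R, 1500 to 2640 in the knockout line and 2710 to 5910 in the wild-type line. At 4 h the line labelled R (1220 to 1290) and the wild-type line (1080 to 3970) overlapped on 1449325_at. The suffix x_at marks a probe set some of whose probes also match other transcripts. In probe set 1449325_at the arrays that stand apart read low, such as 836 for the line labelled R against 1400 and 1470 on its other untreated arrays.

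**Figure D4:**
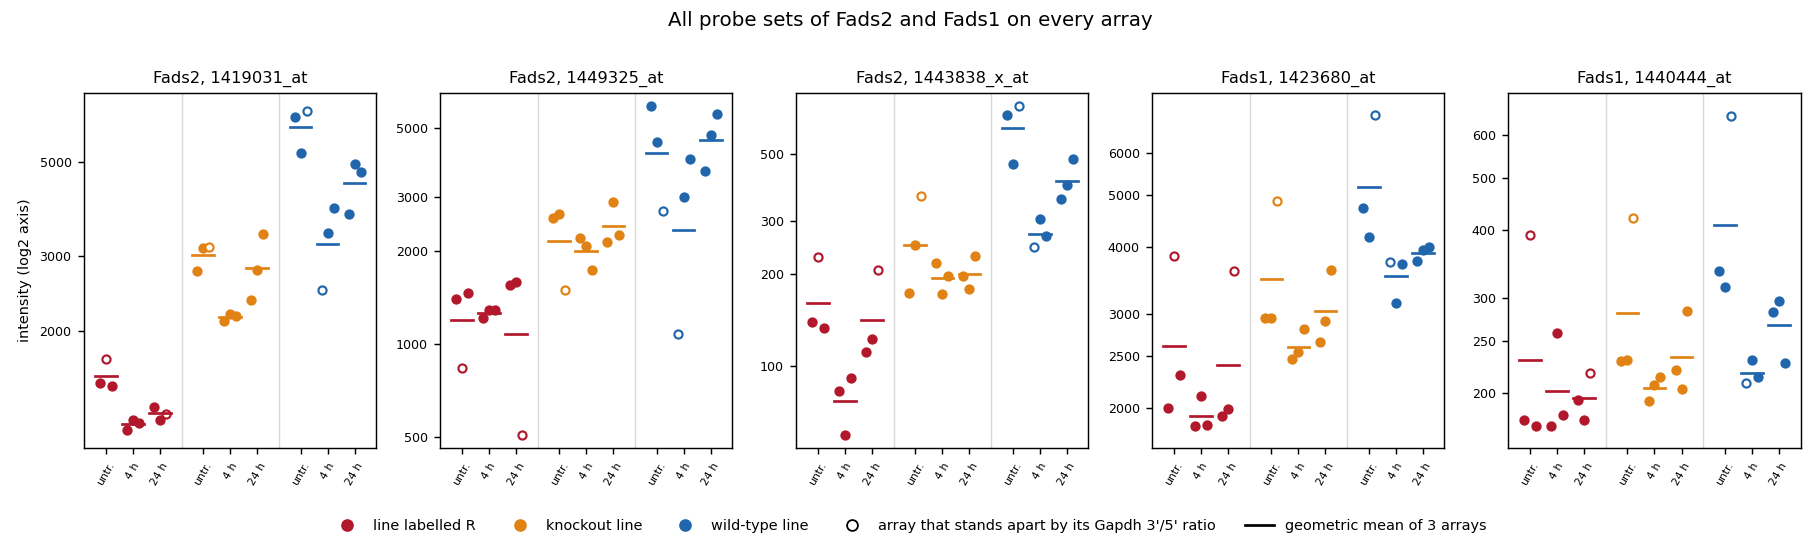
Intensity on each of the 27 arrays (log2 axis, 1 panel per probe set) for the 3 probe sets of Fads2 and the 2 of Fads1, with lines in columns and the geometric mean of 3 arrays as a bar. Open symbols are the 5 arrays that stand apart by their Gapdh ratio. In the left panel the line labelled R lies between 1160 and 1710, the knockout line between 2110 and 3390 and the wild-type line between 2490 and 6630.

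In wild-type cells at 4 h Fads2 was lower than untreated by 0.92 (SE 0.16, adjusted p = 0.005), with no overlap between the arrays. The lowest value, 2490, came from the array that stands apart, and without the 5 such arrays the difference was -0.67 (adjusted p = 0.051). At 24 h the wild-type difference was -0.44 (adjusted p = 0.39). In the line labelled R the differences were -0.37 at 4 h (adjusted p = 0.27) and -0.29 at 24 h (adjusted p = 1), and in the knockout line -0.48 at 4 h (adjusted p = 0.17) and -0.10 at 24 h (adjusted p = 0.95, and a difference of -0.06 without the 5 arrays). Both in the line labelled R and in the knockout line the arrays at 4 h lay below all untreated arrays, although the difference did not pass. In these comparisons 20.7% and 24.4% of all genes did not overlap.

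Fads1 followed the same order of means, with wider spread. Untreated intensities were 2000, 3840 and 2300 in the line labelled R, 2940, 2950 and 4870 in the knockout line, and 4720, 4180 and 7050 in the wild-type line. The highest value in each line is the array that stands apart. Fads1 was lower in the line labelled R than in the wild-type line by 0.99 (SE 0.26, adjusted p = 0.01), and by 1.05 without those arrays (SE 0.14, adjusted p = 0.00011). With all other arrays kept, the call ended without replicate 2 of the wild-type line or replicate 0 of the line labelled R. For the knockout line against the wild-type line the difference was -0.57 (SE 0.26, adjusted p = 0.16), and -0.59 without those arrays (SE 0.14, adjusted p = 0.0085). At 4 h the arrays gave 1850, 2100 and 1860 in the line labelled R, 2470, 2540 and 2810 in the knockout line, and 3740, 3140 and 3720 in the wild-type line, so the 3 lines did not overlap. Pairs of lines at 4 h did not overlap in 30.4% to 35.8% of all genes. The other Fads1 probe set, 1440444_at, did overlap at 4 h. It gave 174 to 258 in the line labelled R, 193 to 214 in the knockout line and 209 to 230 in the wild-type line. On the probe set used, Fads1 was lower at 4 h in the line labelled R than in the wild-type line by 0.87 (SE 0.26, adjusted p = 0.028). That call was kept in 5 of 10 alternatives, and the difference at 24 h was -0.70 (adjusted p = 0.067). Without the arrays that stand apart the difference at 24 h was -0.99 (adjusted p = 6.2e-05), and Fads1 then passed in all 6 comparisons of lines in irradiated cells (adjusted p up to 0.047). After irradiation the Fads1 differences from untreated cells were -0.43 (line labelled R), -0.42 (knockout line) and -0.56 (wild-type line) at 4 h, with adjusted p values of 0.48, 0.53 and 0.29. Without the arrays that stand apart they were -0.15, -0.18 and -0.38.

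Genes around Fads2 on chromosome 19 differed among themselves. Fth1, the ferritin heavy chain, was lower than in the wild-type line by 0.43 in the line labelled R (adjusted p = 0.0025) and by 0.30 in the knockout line (adjusted p = 0.035). Fads3, the third desaturase gene of the cluster, was higher in the knockout line than in the wild-type line by 0.60 (adjusted p = 0.0095), with means of 3310 and 2190, and its difference between the line labelled R and the wild-type line was 0.33 (adjusted p = 0.17). Fen1, which lies next to Fads1 and encodes a flap endonuclease, differed by -0.32 in the line labelled R (adjusted p = 0.28) and 0.01 in the knockout line (adjusted p = 0.98). Myrf, a membrane-bound transcription factor a few genes further on, had means of 13.7 in the line labelled R and 10.7 in the knockout line, both below background, against 5200 in the wild-type line. It was at least 69.8-fold lower in each (adjusted p = 4.7e-06 for the line labelled R and 3.1e-06 for the knockout line).

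Scd1 and Scd2 encode stearoyl-CoA desaturases, which put the first double bond into stearate and palmitate to make oleate and palmitoleate. Their genes also lie side by side on chromosome 19. Scd1 in the wild-type line had intensities of 2160, 2440 and 2310 at 4 h, against 4740, 4250 and 3790 untreated. The highest array at 4 h lay below the lowest untreated one, and the difference was -0.88 (SE 0.14, adjusted p = 0.0036), or -0.92 without the arrays that stand apart (adjusted p = 0.0044). At 24 h Scd1 measured 3340, 3600 and 3530, between both other groups, with a difference of 0.60 from 4 h (adjusted p = 0.029) and of -0.28 from untreated cells (adjusted p = 0.54).

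Scd2 moved in the same way in the wild-type line. Its intensities were 9020, 10900 and 11600 at 4 h, against 16600, 14700 and 15400 untreated, without overlap. The difference was -0.58 (SE 0.10, adjusted p = 0.0052), or -0.48 without the arrays that stand apart (adjusted p = 0.025). The groups overlapped on probe set 1415823_at (1870 to 5630 at 4 h, 3170 to 8520 untreated). They also did on 1415824_at (213 to 1950 and 633 to 3000). The arrays that stand apart read low on both. At 24 h the probe set used for Scd2 measured 13300, 14800 and 13400, which was higher than at 4 h by 0.41 (adjusted p = 0.037) and differed from untreated cells by -0.17 (adjusted p = 0.59). Of the 10 genes, 5 had a positive difference between 4 h and 24 h in this line, as did 9668 of all 18193. Fads2 was among them, with 0.47 (adjusted p = 0.12, limma). Scd1 and Scd2 were the 2 that passed the test, where 1.11% of all genes were called higher. Both calls ended without any 1 of 5 of the 6 compared arrays and were kept without replicate 2 at 4 h (adjusted p = 0.048 for Scd1 and 0.02 for Scd2). The Scd2 call also ended without the arrays that stand apart (adjusted p = 0.079). In the same interval 0 of the 10 genes passed in the line labelled R (1.57% of all genes did in either direction) and 0 in the knockout line (0.0055%), with 1 gene each at an unadjusted p below 0.05, as 15.6% and 8.22% of all genes had.

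Neither desaturase passed the test after irradiation in the other lines. Scd1 measured 2780, 2640 and 2870 at 4 h in the line labelled R, against 3080, 2250 and 2790 untreated (difference 0.04, adjusted p = 0.93, and -0.09 without the arrays that stand apart). In the knockout line it measured 4280, 3970 and 3640 at 4 h, against 4480, 4550 and 3620 untreated (difference -0.08, adjusted p = 0.85, and -0.19 without those arrays). The arrays of both times overlapped in each line. For Scd2 the arrays at 4 h lay below the untreated ones in the line labelled R (-0.22, adjusted p = 0.33) and in the knockout line (-0.26, adjusted p = 0.28). On probe sets 1415823_at and 1415824_at of Scd2 the arrays of these times overlapped in both lines.

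Between the lines, Scd1 and Scd2 were lowest in the line labelled R when untreated. Scd1 was lower there than in the wild-type line by 0.66 (SE 0.14, adjusted p = 0.0021) and than in the knockout line by 0.64 (SE 0.14, adjusted p = 0.013). The second call ended without replicate 0 or 1 of the knockout line or replicate 1 of the line labelled R. The other Scd1 probe set, 1415965_at, had an untreated mean of 612 in the line labelled R (435 to 749). It had 772 in the wild-type line (589 to 907), so these lines overlapped, and 1040 in the knockout line (827 to 1230). Scd2 measured 12100, 11700 and 13600 in the line labelled R, 16700, 16900 and 17400 in the knockout line, and 16600, 14700 and 15400 in the wild-type line. No array of the line labelled R overlapped the other lines on this probe set. On 1415823_at its range of 1860 to 6300 overlapped the knockout line (3880 to 9260) and the wild-type line (3170 to 8520). On 1415824_at its range of 228 to 2180 also overlapped them (582 to 3440 and 633 to 3000). On the probe set used, the line labelled R was lower than the wild-type line by 0.33 (adjusted p = 0.029) and than the knockout line by 0.45 (adjusted p = 0.015). These Scd2 calls were kept in 9 and 12 of 19 alternatives. The call against the wild-type line ended without replicate 0 or 2 of the wild-type line or replicate 0 or 1 of the line labelled R, and the call against the knockout line without replicate 1 of either.

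At 4 h the knockout line was higher than the wild-type line by 0.78 in Scd1 (SE 0.14, adjusted p = 0.00054, means 3950 and 2300) and by 0.45 in Scd2 (SE 0.10, adjusted p = 0.0039, means 14200 and 10400). With Fads2 this made 2 genes higher and 1 lower of the 10, where 5.9% and 8.86% of all genes were called. Scd1 had a mean intensity of 2760 at 4 h in the line labelled R, against 2300 in the wild-type line, a difference that did not pass (0.26, adjusted p = 0.26). On probe set 1415965_at these means were 745 (709 to 792) and 460 (368 to 532). For Scd2 the difference between these lines was 0.03 (adjusted p = 0.89), and -0.07 without the arrays that stand apart. In that comparison 2 of the 10 genes, Fads1 and Fads2, were lower, against 9.07% of all genes. Set against the knockout line at 4 h, the line labelled R was lower in Fads2, Scd2 (-0.42, adjusted p = 0.027) and Scd1 (-0.52, adjusted p = 0.05 after rounding up), where 1.52% of all genes were lower, and the Scd1 and Scd2 calls were kept in 1 of 10 alternatives each.

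At 24 h the line labelled R was again the lowest. Scd1 measured 2590, 2540 and 2140 there, 3560, 4300 and 4880 in the knockout line, and 3340, 3600 and 3530 in the wild-type line. The line labelled R overlapped neither, while the other lines overlapped each other. It was lower than the wild-type line by 0.53 in Scd1 (adjusted p = 0.01) and by 0.32 in Scd2 (adjusted p = 0.028), and than the knockout line by 0.80 in Scd1 (adjusted p = 0.0023) and by 0.51 in Scd2 (adjusted p = 0.0059). The calls against the wild-type line were kept in 6 of 10 alternatives for Scd1 and 4 of 10 for Scd2. The Scd1 call ended without replicate 2 of the line labelled R, and the Scd2 call without replicate 1 of the wild-type line or replicate 0 or 2 of the line labelled R. With Fads2, 3 of the 10 genes were lower in each of these comparisons, against 9.78% and 2.1% of all genes. Fads2 was the 1 gene called for the knockout line against the wild-type line at 24 h, where 10.1% of all genes were lower.

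Elovl6 encodes the elongase that lengthens palmitate to stearate, the substrate of the stearoyl-CoA desaturases. In the wild-type line it had intensities of 2460, 2380 and 2810 untreated, 1440, 1480 and 1570 at 4 h, and 1340, 1250 and 1660 at 24 h. Every irradiated array lay below every untreated one, where 21.2% of all genes did not overlap at 4 h and 15.8% at 24 h. The differences from untreated cells were -0.77 at 4 h (SE 0.13, adjusted p = 0.0042) and -0.86 at 24 h (SE 0.13, adjusted p = 0.011), or -0.66 (adjusted p = 0.034) and -0.78 (adjusted p = 0.046) without the arrays that stand apart. The call at 24 h was lost in 5 of 17 alternatives, among them leaving out replicate 1 at 24 h.

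Elovl6 had a lower mean after irradiation in the other lines too, short of the threshold. In the line labelled R it measured 2600, 1980 and 1910 untreated, 1600, 1720 and 1720 at 4 h, and 1620, 1580 and 1460 at 24 h. In the knockout line the values were 2260, 2190 and 1950 untreated, 1760, 1790 and 1800 at 4 h, and 1560, 1660 and 1800 at 24 h. Irradiated and untreated arrays did not overlap in either line. Such groups did not overlap in 20.7% of all genes at 4 h and 9.05% at 24 h in the line labelled R. In the knockout line these shares were 24.4% and 12.1%. The differences were -0.35 (adjusted p = 0.18) and -0.46 (adjusted p = 0.78) at 4 h and 24 h in the line labelled R, and -0.25 (adjusted p = 0.41) and -0.35 (adjusted p = 0.74) in the knockout line. At 24 h Elovl6 had the unadjusted p values 0.0016 (line labelled R) and 0.012 (knockout line). No difference between lines passed for Elovl6 in untreated cells, with -0.25 for the line labelled R relative to the wild-type line (adjusted p = 0.21) and -0.26 for the knockout line against it (adjusted p = 0.19), or -0.12 for each without the arrays that stand apart. A second probe set, 1417403_at, gave differences of -1.29 at 4 h (adjusted p = 0.0098 with probe sets tested by themselves) and -1.02 at 24 h (adjusted p = 0.15) in the wild-type line.

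Elovl1 and Elovl5 serve other substrates. Elovl1 lengthens saturated and monounsaturated chains into the very long range, and Elovl5 lengthens polyunsaturated ones. Elovl1 in the wild-type line measured 2810, 2530 and 2950 at 4 h, against 4020, 3410 and 5130 untreated. The groups did not overlap, and the difference of -0.58 missed the threshold (SE 0.16, adjusted p = 0.058), which it passed in 6 of 17 alternatives, and was -0.44 without the arrays that stand apart (adjusted p = 0.053). Untreated, the line labelled R differed from the wild-type line by -0.29 (adjusted p = 0.27), and was lower by 0.33 without those arrays (adjusted p = 0.042). At 24 h that difference was -0.28 (adjusted p = 0.27), and -0.42 without them (adjusted p = 0.006). The Elovl1 differences from untreated cells were -0.25 at 4 h in the line labelled R (adjusted p = 0.52) and -0.29 in the knockout line (adjusted p = 0.48), or -0.05 and -0.20 without those arrays. All 5 arrays that stand apart read high for it, among them the untreated wild-type array at 5130. The probe set used for Elovl1 also carries the x_at suffix.

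Elovl5 varied least among the 10, with a fold of 1.26 between its highest and lowest group means. Untreated, it measured 4620, 4040 and 4440 in the line labelled R, 5060, 5000 and 4940 in the knockout line, and 6130, 5890 and 4640 in the wild-type line. The line labelled R was lower than the wild-type line by 0.34 (SE 0.11, adjusted p = 0.042), and the groups did not overlap, although the wild-type array at 4640, which stands apart, lay just above the highest of the line labelled R. That call was kept in 7 of 19 alternatives and ended without any 1 of 5 of the 6 compared arrays. The exception was the wild-type array at 4640. Irradiation gave differences of 0.07 (line labelled R), 0.01 (knockout line) and -0.04 (wild-type line) at 4 h, or 0.02, 0 and -0.21 without the arrays that stand apart. The other Elovl5 probe set, 1437211_x_at, had an untreated mean of 4380 in the line labelled R (4210 to 4680). It had 4630 in the wild-type line (4040 to 5030), so these lines overlapped there.

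Acly cleaves citrate to the acetyl-CoA from which chains are built, Acaca makes malonyl-CoA, and Fasn assembles palmitate. With all 27 arrays none of these 3 genes passed the test in any of the comparisons between lines or times. Fasn measured 3160, 2740 and 6730 untreated in the wild-type line, 2880, 2770 and 2860 at 4 h, and 2090, 2350 and 2420 at 24 h. The untreated array at 6730 stands apart, and the arrays at 24 h lay below all untreated ones. The differences were -0.45 at 4 h (SE 0.29, adjusted p = 0.48) and -0.76 at 24 h (SE 0.29, adjusted p = 0.43), and without the arrays that stand apart -0.06 (adjusted p = 0.9) and -0.36 (adjusted p = 0.54). Fasn in the line labelled R measured 4030, 5830 and 2810 untreated, 3950, 4000 and 4280 at 4 h, and 2670, 2560 and 4630 at 24 h. Its value fell between 4 h and 24 h only when the arrays that stand apart were left out (-0.64, adjusted p = 0.043) or their ratio was a covariate, and with all arrays the difference was -0.36 (adjusted p = 0.61). In the knockout line Fasn measured 3270, 3130 and 4920 untreated, 3570, 3890 and 3870 at 4 h, and 3370, 2650 and 3320 at 24 h. Untreated arrays overlapped both irradiated groups, and the arrays at 24 h lay below those at 4 h (difference -0.29, adjusted p = 0.9). Set against the wild-type line at 4 h, the Fasn difference was 0.52 in the line labelled R (adjusted p = 0.29, means 4080 and 2840) and 0.41 in the knockout line (adjusted p = 0.44, means 3770 and 2840). Without the arrays that stand apart Fasn was higher in the line labelled R by 0.53 (adjusted p = 0.015), a call also made on the compared arrays alone, and the knockout difference was 0.42 (adjusted p = 0.052). At 24 h the differences from the wild-type line were 0.47 in the line labelled R (adjusted p = 0.31) and 0.44 in the knockout line (adjusted p = 0.36). Without those arrays they were 0.20 in the line labelled R (adjusted p = 0.38) and 0.44 in the knockout line, where Fasn was then higher (adjusted p = 0.019).

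Acaca ran close to Fasn. It measured in the wild-type line 789, 706 and 1570 untreated, 809, 649 and 782 at 4 h, and 480, 557 and 668 at 24 h. Again the highest untreated array stands apart, and the differences were -0.36 (adjusted p = 0.6) and -0.76 (adjusted p = 0.44), or -0.07 and -0.41 without the arrays that stand apart. Acaca ranged from 555 to 1200 over the 9 arrays of the line labelled R and from 678 to 1100 over those of the knockout line, with no difference past the test. Untreated, its differences from the wild-type line were -0.22 in the line labelled R (adjusted p = 0.7) and -0.15 in the knockout line (adjusted p = 0.8), or -0.14 and 0.02 without the arrays that stand apart.

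Acly was steady by comparison. It measured 6260, 4200 and 4960 untreated in the line labelled R, 6290, 5650 and 6550 at 4 h, and 4670, 4540 and 3850 at 24 h. At 24 h it lay below all arrays at 4 h in this line, with a difference of -0.50 (SE 0.15, adjusted p = 0.096), which passed among genes above the median level (adjusted p = 0.037). In the knockout line it ranged from 5010 to 6230 and in the wild-type line from 3990 to 5900. Its differences in the wild-type line were -0.09 at 4 h (adjusted p = 0.82) and -0.23 at 24 h (adjusted p = 0.64), or -0.24 and -0.37 without the arrays that stand apart. Of the 6 probe sets of Acly, 3 lay below background on all 27 arrays and were not read.

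**Figure D5:**
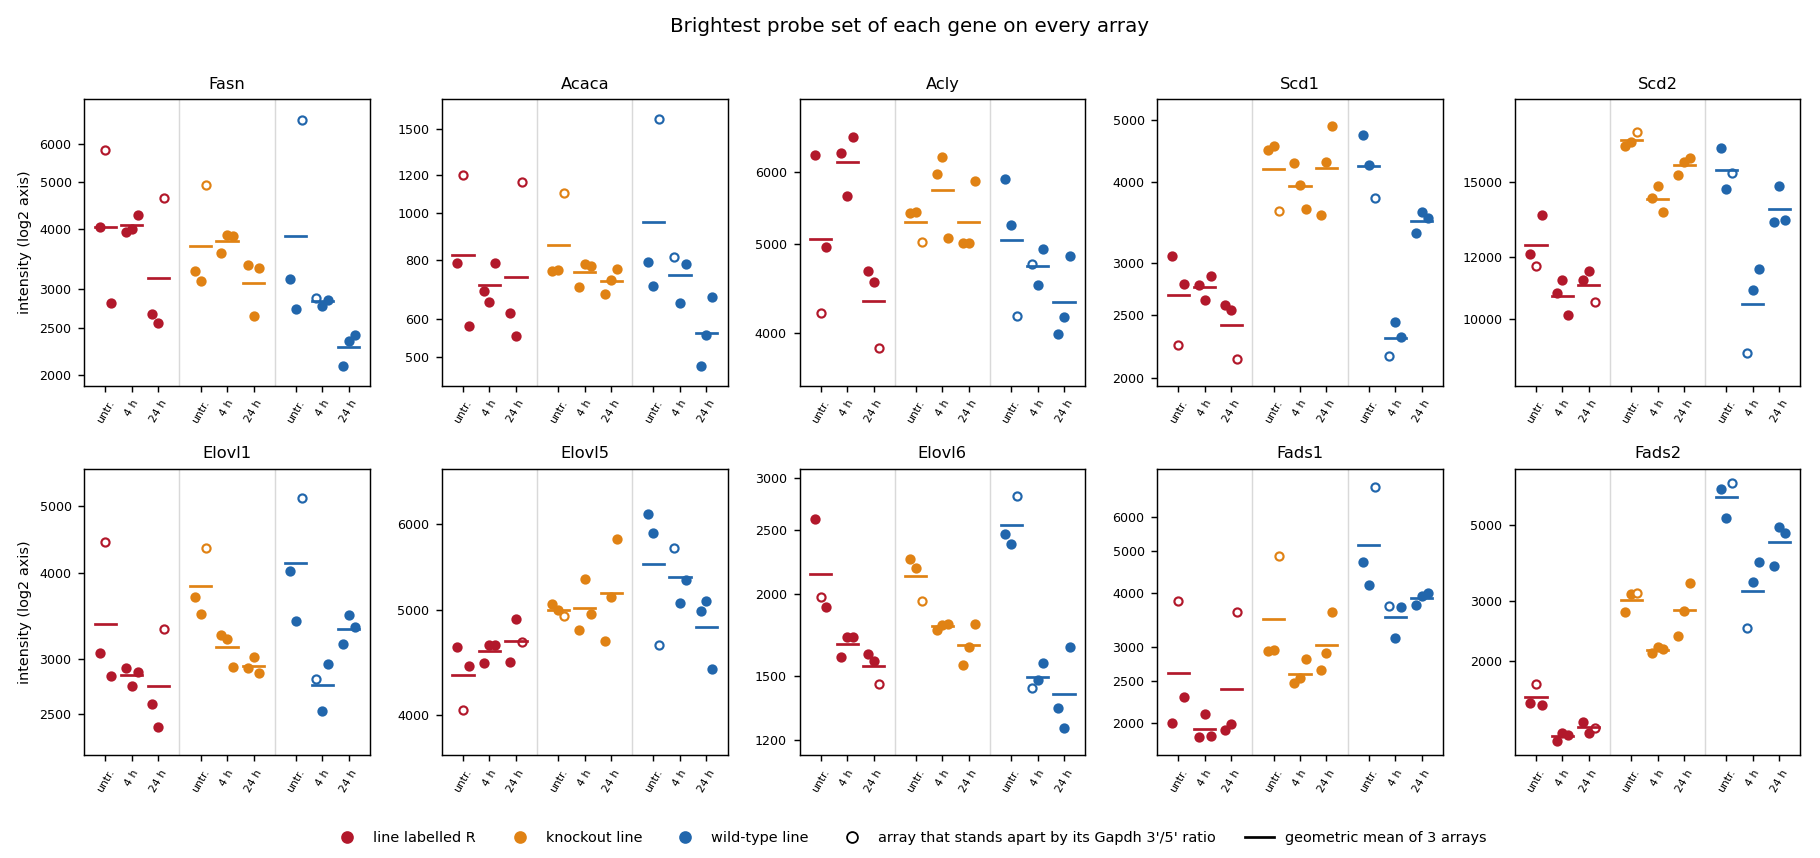
Intensity of the brightest probe set of each of the 10 genes on each of the 27 arrays (log2 axis, scaled for each gene), with the line labelled R, the knockout line and the wild-type line in columns and the geometric mean of 3 arrays as a bar. Open symbols are the 5 arrays that stand apart. Scd1, Scd2, Elovl6 and Fads2 lie lower at 4 h than untreated in the wild-type line, and Fads2 separates the 3 lines.

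Whether the lines differed in their response was tested as a difference of differences (limma), and 0 of the 10 genes passed in any of the 6 such comparisons. At 4 h, 0.0165% of all genes passed for the line labelled R minus the wild-type line, 0.011% for the knockout line minus the wild-type line and 0% for the line labelled R minus the knockout line. At 24 h the shares were 0.0055% in each of the 3. The first 2 comparisons share the wild-type arrays. At 4 h all 10 genes had a positive difference in each of them, where 53.9% of all genes had a negative one, with medians of 0.37 for the line labelled R and 0.31 for the knockout line, against -0.04 over all genes in both. The largest was Scd1, with 0.92 for the line labelled R (SE 0.20, unadjusted p = 0.00019, adjusted p = 0.19) and 0.79 for the knockout line (SE 0.20, unadjusted p = 8e-04, adjusted p = 0.41). At an unadjusted p below 0.05 there were 4 genes for the line labelled R (Scd1, Scd2, Elovl6 and Fads2) and 3 for the knockout line (Scd1, Scd2 and Elovl6), where 5.95% and 5.49% of all genes were below it. At 24 h the counts were 1 and 1, Elovl6 in both, against 3.75% and 3.44% of all genes. Between the line labelled R and the knockout line there were 0 such genes at 4 h or 24 h (2.95% and 2.99% of all genes), with median differences of 0.04 and -0.08. Scd1 passed for the line labelled R minus the wild-type line with the Gapdh ratio as a covariate (adjusted p = 0.042).

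Some of the 10 genes varied together over the 27 arrays. These correlations are descriptions over arrays that share lines, times and array quality. Pearson's r was 0.891 for Scd1 with Scd2, 0.863 for Fasn with Acaca and 0.833 for Fads1 with Fads2. Without the arrays that stand apart these were 0.904, 0.688 and 0.984 over 22 arrays. Of 45 pairs of genes, 34 had an r above 0, with a median of 0.349, and the lowest was -0.486 for Acly with Fads1. The mean of the 10 centred log2 values was 0.42 ± 0.18 in untreated cells of the wild-type line, -0.10 ± 0.071 at 4 h and -0.02 ± 0.087 at 24 h (SD, n = 3 arrays each). In the line labelled R it was -0.08 ± 0.14, -0.22 ± 0.028 and -0.29 ± 0.14, and in the knockout line 0.21 ± 0.096, 0.03 ± 0.035 and 0.05 ± 0.12, in the same order of times.

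Of 10130 other genes above background, the 5 whose values over the 27 arrays were most like this mean were Slc25a1 (r = 0.88), Lss (0.879), Stard4 (0.868), Sqle (0.858) and Adamts9 (0.845). Slc25a1 is the mitochondrial citrate carrier, Lss and Sqle are enzymes of cholesterol synthesis, Stard4 carries sterols and Adamts9 is a secreted protease. Lss, for example, had means of 2270 untreated, 1030 at 4 h and 1280 at 24 h in the wild-type line, and 1130, 1100 and 990 in the line labelled R.

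Other genes of the pathway were counted in lists by role. In the wild-type line at 4 h, 1 of 21 other enzymes of chain building was lower and 0 higher (median -0.16), the dehydratase Hacd4 with -1.18 (adjusted p = 0.0094). Of all genes, 1.74% were called lower and 1.51% higher in this comparison. Among 7 genes that supply acetyl-CoA and NADPH, 2 were lower and 0 higher (median -0.13). These were Acss2, which makes acetyl-CoA from acetate, with -1.33 (adjusted p = 0.02, means 141 and 355), and Idh1, a cytosolic source of NADPH, with -0.92 (adjusted p = 0.0054, means 2780 and 5270). Me1, another source of NADPH, differed by 0.07 (adjusted p = 0.91). Idh1 was higher at 24 h than at 4 h by 0.76 (adjusted p = 0.018), as Scd1 and Scd2 were. In the other lines 0 genes of these lists passed at 4 h, but Hacd4, Idh1 and Acss2 lay below all untreated arrays there too. Their means at 4 h were 509, 3590 and 160 in the line labelled R (945, 5320 and 219 untreated). In the knockout line they were 265, 4200 and 173 (489, 5580 and 258 untreated).

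Among the remaining lists 0 of 13 genes of fatty acid activation and esterification, 0 of 20 regulators and 0 of 20 genes of beta oxidation passed in the wild-type line at 4 h (limma), with 0, 2 and 4 at an unadjusted p below 0.05 (17% of all genes) and medians of -0.10, -0.15 and -0.23. Insig1, which retains the SREBP complex in the endoplasmic reticulum and is itself an SREBP target, differed by -0.86 (adjusted p = 0.11). Srebf2 differed by -0.49 (adjusted p = 0.24) and Srebf1 by -0.26 (adjusted p = 0.51). Acsl3, an acyl-CoA synthetase, differed by -0.42 (adjusted p = 0.38). In the other lines at 4 h, Acadvl, which starts the oxidation of very long chains, was lower in the line labelled R by 0.59 (adjusted p = 0.038). Its means were also lower at 4 h in the knockout line (1780, 2360 untreated) and the wild-type line (1960, 2720 untreated). Arrays did not overlap in either, but the differences did not pass.

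Between the untreated lines some of the other lists held called genes in both directions. Against the wild-type line, 0 of 7 supply genes were called in either line. Of 20 genes of beta oxidation, 3 were lower and 2 higher in the line labelled R, and 3 lower and 1 higher in the knockout line. Relative to the wild-type line, the line labelled R had lower values of 3 other chain-building enzymes of 21 and a higher value of 1, where 9.39% of all genes were called in each direction. Elovl4, an elongase of very long chains, was higher by 2.25 (adjusted p = 8.2e-07, means 426 and 89.6), and Hacd4 was lower by 1.75 (adjusted p = 1.1e-05). The knockout line against the wild-type line gave 3 lower and 3 higher of 21, against 9.83% and 7.77% of all genes, with Elovl4 higher by 2.12 (adjusted p = 1.8e-06) and Hacd4 lower by 2.70 (adjusted p = 4.2e-08). Elovl7 lay below background in the line labelled R and the knockout line, at least 2.08-fold lower than the wild-type mean of 155. Of 13 genes of activation and esterification, 3 were lower and 1 higher in each line, among them Gpam, which starts glycerolipid synthesis, lower by 1.31 in the line labelled R (adjusted p = 2e-05) and by 1.02 in the knockout line (adjusted p = 0.00032). Acsl3 was higher in the knockout line by 1.11 (adjusted p = 0.0016). Srebf1 differed by -0.39 in the line labelled R (adjusted p = 0.16) and by -0.46 in the knockout line (adjusted p = 0.091), and of 20 regulators 1 was lower and 0 higher in the line labelled R, and 4 were lower and 1 higher in the knockout line.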

How the data were processed

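RNA was hybridised to 27 Affymetrix Mouse Genome 430 2.0 arrays. The authors deposited linear signal intensity per probe set. RMA and GCRMA appear in the submitters' processing notes with no stated role, and the trimmed mean (2% at each end) was 500.003 on all arrays, so how the intensity was summarised is unknown here. Logarithms were taken here: log2 values of the deposited intensities, with no offset. Samples were grouped by title, since 6 irradiated wild-type samples are described as untreated. Of 45101 probe sets, 34945 had 1 gene symbol in the platform annotation, 932 several and 9160 none, and the brightest per gene gave 18193 genes. The background of 74.5 is the maximum of 243 values (9 probe sets of Y-linked genes).

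Group means were fitted with limma 3.58.1 in R 4.3.3 (18 residual degrees of freedom), with Benjamini-Hochberg adjustment within each of 18 comparisons at 0.05, two-sided. Comparisons of lines within irradiated arrays were added after seeing the data. The fit was tested on simulated data. The smallest exact permutation p for 3 against 3 arrays is 0.1, so no such test was used. The members and lists were chosen with earlier results of these data known. Named genes are all 10 members, up to 4 called genes per other list and comparison by smallest p, Srebf1, Srebf2, Insig1, Acss2, Me1 and Acsl3, Akt1, the neighbours in the genome and the 5 genes most like the mean of the 10. Deviations of same-numbered arrays from their group means had a median r of 0.031 (108 pairs, r from -0.73 to 0.79). By mean r, 14 of 27 arrays were most like arrays of their own number. Numbers were not taken as pairs in the main fit. Alternatives covered scaling, offset, probe set choice, array quality, the replicate block, the arrays fitted and leaving out each array. Array number limits the precision.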

Additional observations from a re-analysis of the deposited data

Results flagged for a closer look

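For Acly, which cleaves citrate to acetyl-CoA, the difference between 4 h and untreated cells was 0.37 larger on the log2 scale in the line labelled R than in the wild-type line. It is listed because the mean differences of these lines lie on opposite sides of 0, at 0.28 in the line labelled R and -0.09 in the wild-type line. The difference of differences did not pass (adjusted p = 0.93, limma).

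For Elovl5, the elongase of polyunsaturated chains, the difference between 24 h and untreated cells was 0.29 larger in the line labelled R than in the wild-type line, with 0.10 in the line labelled R and -0.19 in the wild-type line. This difference did not pass either (adjusted p = 0.99, limma). On probe set 1437211_x_at the line labelled R had means of 4440 at 24 h and 4380 untreated. The wild-type line had 4740 and 4630 there.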

How the results depend on the processing

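Among the counts of called genes of the 10, 177 of 204 values under other settings and 132 of 144 with 1 array left out stayed within 1.5 times the main count. Irradiation in the wild-type line gave 4 genes at 4 h, against 1 with equal array medians, 0 in a fit on the compared arrays only and 4 to 5 with 1 array left out. At 24 h it gave 1, against 0 with equal array medians, averaged probe sets, each probe set tested or the compared arrays only, and 0 to 1 with 1 array left out. Between 24 h and 4 h it gave 2, against 1 with quantile normalization or without the arrays that stand apart, 0 with equal array medians, averaged probe sets, each probe set tested or the compared arrays only, and 0 to 3 with 1 array left out. In the line labelled R the count between 24 h and 4 h was 0, and 1 without the arrays that stand apart, with the Gapdh ratio as a covariate or among genes above the median level. The response of the line labelled R minus that of the wild-type line at 4 h gave 0, and 1 with the covariate.

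Between untreated lines, the knockout against the wild type gave 1, against 2 without the arrays that stand apart or with the covariate, 3 on the arrays at 4 h and 1 to 2 with 1 array left out. The comparison of the line labelled R with the wild type gave 5, against 2 with equal array medians, averaged probe sets or the arrays at 4 h, 3 with each probe set tested or the arrays at 24 h, 1 with the compared arrays only and 3 to 4 with 1 array left out. Against the knockout it gave 3, against 1 with equal array medians, 0 with the compared arrays only and 1 to 3 with 1 array left out. On the arrays at 4 h the difference of the line labelled R from the wild type was 0.262 for Scd1 and 0.034 for Scd2, opposite in sign to untreated cells, and for Scd2 -0.07 without the arrays that stand apart. With the replicate block, the comparison of the line labelled R with the wild type gave 4 (Elovl5 had an adjusted p of 0.054), and no other count changed.

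The comparisons of lines in irradiated cells, and their alternatives, were chosen after seeing the data. At 4 h the knockout against the wild type gave 3, against 1 with averaged probe sets or the compared arrays only, and 2 to 3 with 1 array left out. Set against the wild type, the line labelled R gave 2, against 1 with averaged probe sets and 1 to 2 with 1 array left out, and 3 against the knockout, against 1 with equal array medians, averaged probe sets, the compared arrays only or any array left out. At 24 h the knockout against the wild type gave 1, against 3 without the arrays that stand apart, 0 with equal array medians or the compared arrays only, and 1 with any array left out. In the line labelled R, the comparison with the wild type gave 3, against 5 without the arrays that stand apart, 1 with averaged probe sets or the compared arrays only, and 2 to 3 with 1 array left out. Against the knockout it gave 3, 0 with the compared arrays only, and 3 with any array left out. Fits on the compared arrays only hold fewer samples. For the other settings the cause was not tested.

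Equal array medians moved the median of all genes to 0.12 at 4 h in the wild-type line and to 0.22 between the untreated knockout and wild-type lines. Under that scaling the medians of the 10 genes were -0.44 and 0.10. In comparisons of 2 groups the standard errors of Fasn, Acaca and Fads1 were 0.26 to 0.30 with all arrays and 0.12 to 0.17 without the arrays that stand apart.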
